A study of Homo sapiens with 11 samples.

Results

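The keratin genes were described across 11 RNA-seq libraries from cultures of BT483 and T47D-TamR, which are breast cancer lines. Their 55 members were all gene symbols of the count files made of KRT, a number and at most 1 letter from A to C, out of 59087 symbols. They comprised 28 type I keratins, 26 type II keratins and KRT222, a keratin-like gene assigned here to neither type. The 147 keratin pseudogenes and the 112 genes of keratin-associated proteins in the files were not members. In GENCODE 29 on GRCh38, 27 members lay at chr12:52168996-52952901, where KRT18 was the lone type I gene beside the type II genes. The other 28 lay at chr17:40654665-41624842.

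Keratins are the intermediate filament proteins of epithelial cells. A type I keratin pairs with a type II keratin to form the filament, so that a cell makes members of both types. Luminal cells of the breast are known for the simple epithelial keratins KRT7, KRT8, KRT18 and KRT19, and basal or myoepithelial cells for KRT5, KRT14 and KRT17. Other members belong to differentiated layers of stratified epithelia (KRT4, KRT10, KRT13), to activated or wounded epithelium (KRT6A to KRT6C, KRT16, KRT17) or to hair (KRT31 to KRT40 and KRT81 to KRT86).

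BT483 comes from an estrogen receptor positive ductal carcinoma. The resistant T47D-TamR cells had been selected from T47D, also estrogen receptor positive, by growth in 0.1 µM tamoxifen, an antiestrogen, in which they were kept. All cells were kept without estrogen for 48 h before treatment. In the siRNA arm, each line received 10 nM of an siRNA against the kinase NLK (type 1 or type 2 in the labels), control siRNA with 0.5 µM tamoxifen, or control siRNA, for 72 h. In the drug arm, T47D-TamR received 0.5 µM VX-702, known as a p38α MAP kinase inhibitor, DMSO with 0.5 µM tamoxifen, or DMSO. Each of these 11 groups held 1 library, 4 of BT483 and 7 of T47D-TamR. The tests therefore take the spread from libraries of other conditions. Whether libraries came from separate cultures is not in the labels. The p-values then reflect the spread between these samples alone, which may be technical. Each cell line is also 1 line, and the lines were maintained in different media, so line and medium cannot be told apart.

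The libraries held 14637083 to 26915863 counts each. A floor of 3 counts, up to which a value is not told from 0, equals 0.111 to 0.205 CPM (counts scaled to a common library total). Intervals on ratios are exact 95% binomial intervals of the counts and cover counting error only. The luminal markers GATA3 and FOXA1 were found in every library, at 1100.4 to 1285 and 297 to 339 TPM (a level scaled by gene length and library total) in BT483 and at 353 to 533 and 147 to 233 TPM in T47D-TamR. ESR1, the estrogen receptor gene, had 25.4 to 33.5 TPM in BT483 and 3.71 to 6.68 TPM in T47D-TamR. The epithelial markers EPCAM and CDH1 had at least 202 TPM in every library. TP63, which defines basal cells, had 0.0147 to 0.131 TPM in BT483 and 1.71 to 3.76 TPM in T47D-TamR. The myoepithelial marker ACTA2 had 0.461 to 1.55 TPM in BT483 and 23.6 to 57.1 TPM in T47D-TamR. CNN1 and MYLK, of the same kind, had at most 5.28 TPM in any library. NLK was below its control in each knockdown library, with 5.54 TPM for type 1 and 3.41 TPM for type 2 against 19.1 TPM with control siRNA in BT483. T47D-TamR had 5.37 TPM of NLK for type 1 and 7.29 TPM for type 2 against 16.4 TPM with control siRNA. In the edgeR fit of all 11 libraries described further on, NLK fell by 1.75 on the log2 scale with knockdown at an adjusted p of 0.0308, a call that was lost under 8 of 15 alternatives.

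Keratin mRNA was mostly that of simple epithelial members. KRT7, KRT8, KRT18 and KRT19 together made 93.5 to 95.6% of the summed keratin TPM in BT483 and 82.5 to 88.2% in T47D-TamR. Of the 55 members, 15 had a mean of at least 1 CPM over the 11 libraries, scaled by trimmed mean of M values (TMM). They were those 4, KRT80, KRT4, KRT10, KRT13, KRT15, KRT16, KRT17, KRT23, KRT32, KRT81 and KRT86. Another 17 members never had more than 3 counts, and KRT76, KRT27 and KRT33B had 0 counts in all 11 libraries. By class, at most 3 counts were found for 8 of 17 hair keratins, 7 of 9 keratins of the hair root sheath and 2 of 13 keratins of differentiated stratified epithelium.

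**Figure D1:**
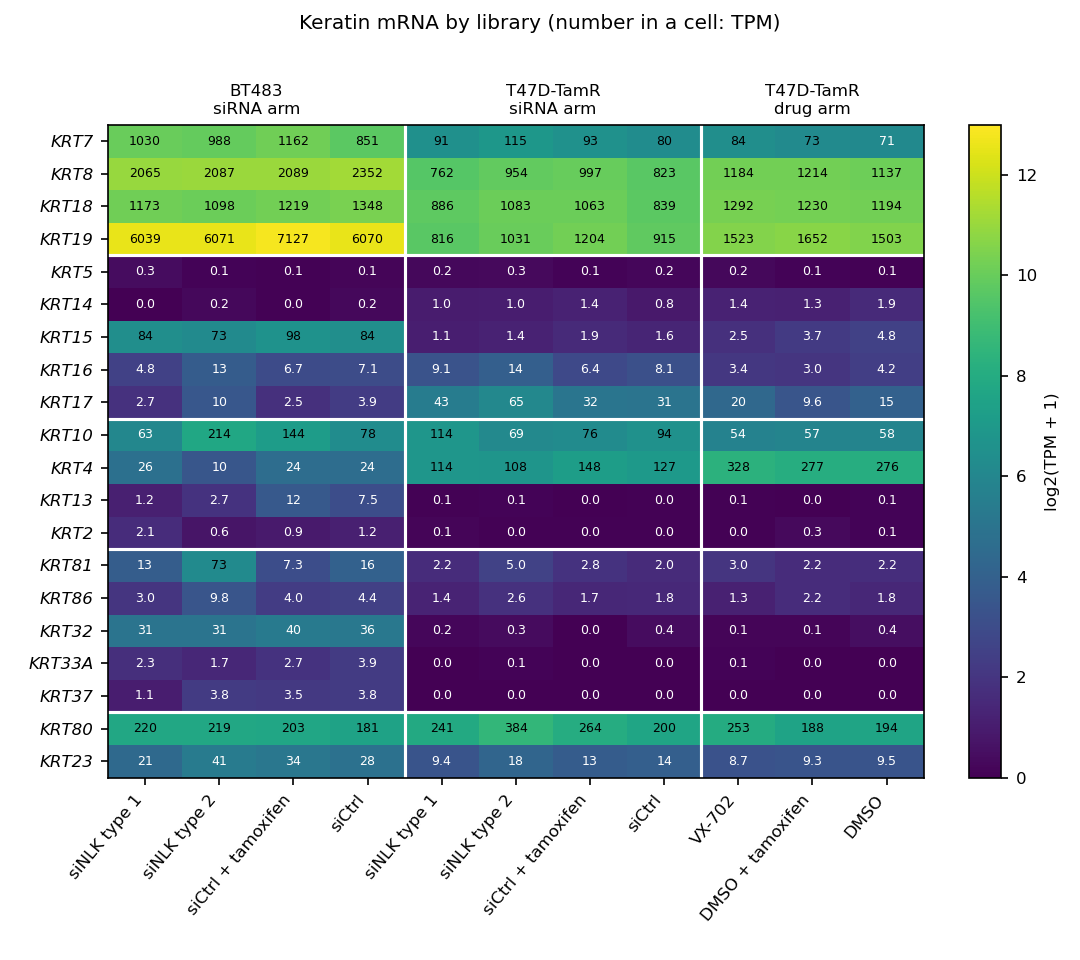
Levels of named keratins in each library, ordered by class down the page and by line and arm across it; colour is log2(TPM + 1) and the number in a cell is TPM. KRT19, KRT8 and KRT18 have the highest TPM in both lines, KRT80 stands above KRT7 in T47D-TamR and below it in BT483, KRT15 and KRT32 are higher in BT483, and KRT4 is higher in T47D-TamR.

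The sum of all keratins was larger in BT483 than in T47D-TamR in every library. It came to 10788 TPM for type 1, 10957 TPM for type 2, 12191 TPM with tamoxifen and 11104 TPM with control siRNA in BT483. In the siRNA arm of T47D-TamR the same conditions had 3098, 3862, 3909.7 and 3144 TPM. The drug arm stood in between, with 4762 TPM for VX-702, 4726 TPM for DMSO with tamoxifen and 4478 TPM for DMSO. No test was made on this sum. RNA of a culture is measured as a whole here, so fewer cells that express a keratin and less mRNA per cell cannot be told apart.

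KRT19, known for lacking the tail domain of other keratins, had the highest TPM of all members in BT483. In T47D-TamR it had the highest TPM as well, except in both knockdown libraries, where KRT18 had the higher one. This order in T47D-TamR rests on the gene lengths of the deposited TPM: per kilobase of the longest coding transcript, KRT8 stood above KRT19 and KRT18 in all 7 libraries of this line. KRT19 had 6039 TPM for type 1, 6071 TPM for type 2, 7127 TPM with tamoxifen and 6069.8 TPM with control siRNA in BT483. In the siRNA arm of T47D-TamR it had 816 TPM for type 1, 1031 TPM for type 2, 1204 TPM with tamoxifen and 915 TPM with control siRNA, and in the drug arm 1503 to 1652 TPM. The ranges of the lines do not overlap. KRT19 made 54.7 to 58.5% of keratin TPM in BT483 and 26.3 to 35.0% in T47D-TamR.

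KRT8 and KRT18, the type II and type I partners found in nearly all simple epithelia, stood in different proportions in the lines. The TPM ratio of KRT8 to KRT18 was 1.71 to 1.90 in BT483 and 0.860 to 0.987 in T47D-TamR, and that of KRT19 to KRT18 was 4.50 to 5.85 in BT483 and 0.920 to 1.34 in T47D-TamR. Summed over all members, the TPM ratio of type II to type I keratins was 0.438 ± 0.0240 in BT483 (SD, n = 4 libraries) and 0.636 ± 0.0321 in T47D-TamR (SD, n = 7 libraries). These ratios, like the shares of keratin TPM above, depend on the gene lengths used. The deposited TPM treat KRT8 as 2.95 times as long as KRT19, as the merged exons of GENCODE 29 also give, whereas their longest coding transcripts have 1687 and 1390 bases. With counts per kilobase of those transcripts, an alternative added after seeing the data, the ratio of KRT8 to KRT18 was 3.56 to 3.94 in BT483 and 1.79 to 2.05 in T47D-TamR, and that of KRT19 to KRT18 was 3.85 to 5.00 in BT483 and 0.787 to 1.15 in T47D-TamR. On this scale the ratio of type II to type I averaged 0.853 in BT483 and 1.11 in T47D-TamR. With CPM it averaged 1.02 in BT483 and 1.38 in T47D-TamR, so the lower value in BT483 held on each of these scales while the side of 1 on which a line stood did not.

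**Figure D2:**
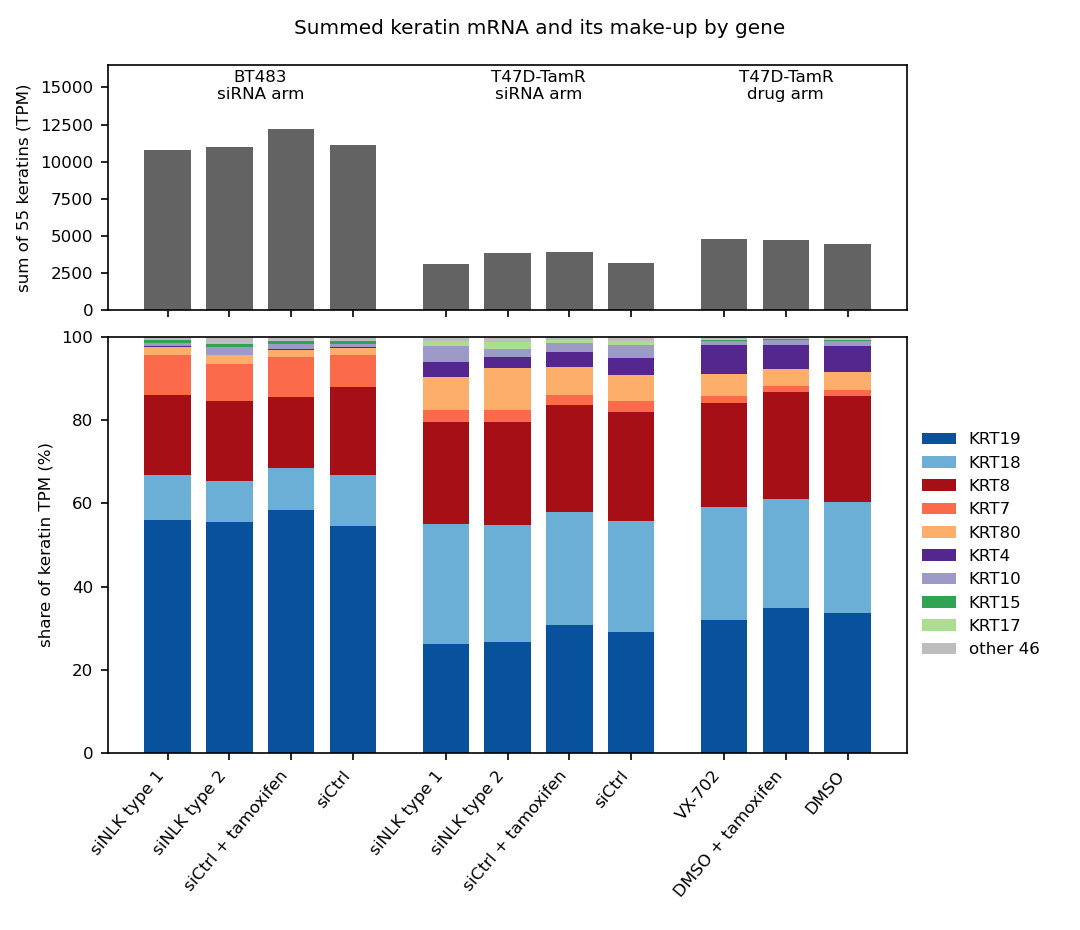
The upper bars give the summed TPM of the 55 keratins in each library and the lower bars the percent of it from each gene (blues, greens and light purple for type I, reds, orange and dark purple for type II, grey for the other 46 members). KRT19 takes 54.7 to 58.5% in BT483 and 26.3 to 35.0% in T47D-TamR.

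Between the lines, 21 of the 27 keratins that passed the filter on low counts differed at an adjusted p under 0.05, 15 higher and 6 lower in BT483 (edgeR quasi-likelihood F test on the 8 siRNA libraries, blocked by condition, Benjamini-Hochberg over 21990 genes). Over all genes tested, 70.7% were called, so a share of this size is not particular to keratins. The median log2 fold change of BT483 over T47D-TamR was 1.12 over these 27 keratins and 0.01 over all genes tested. The median over keratins stayed at 1.12 with KRT37 and KRT35 set to 3 counts over the 4 siRNA libraries of T47D-TamR. The other 28 keratins were too low to be tested. Besides the hair keratins listed below, KRT13, KRT2 and KRT79 passed the filter through BT483 alone, and KRT14, KRT9 and KRT75 through T47D-TamR alone. Their direction followed from the filter, so their calls are no independent evidence.

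Of the simple epithelial keratins, KRT7, KRT19 and KRT8 were higher in BT483, by log2 fold changes of 3.24 (SE 0.124, adjusted p = 1.78e-09), 2.52 (SE 0.106, adjusted p = 3.79e-09) and 1.12 (SE 0.106, adjusted p = 2.21e-06) in edgeR. KRT18 had a log2 fold change of 0.16 (SE 0.111, adjusted p = 0.223) and did not pass. It stood at 1098 to 1348 TPM in BT483, 839 to 1083 TPM in the siRNA arm of T47D-TamR and 1194 to 1292 TPM in its drug arm. KRT20, a simple keratin of gut and urothelium, had at most 5 counts in any library. In a limma fit of the authors' normalized log2 TPM, KRT18 was called too, at a log2 difference of 0.99 (adjusted p = 0.00388).

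Of 6 tested basal and activated keratins, 1 was higher and 2 were lower in BT483. KRT15, a type I keratin of basal cells in stratified epithelia, had 83.6 TPM for type 1, 72.8 TPM for type 2, 97.8 TPM with tamoxifen and 83.9 TPM with control siRNA in BT483. In the siRNA arm of T47D-TamR it had 1.10, 1.39, 1.91 and 1.58 TPM under these conditions, and 2.47 to 4.78 TPM in the drug arm. The log2 fold change was 5.66 (SE 0.139, adjusted p = 1.31e-10 in edgeR), the smallest adjusted p of all members.

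KRT17, a type I keratin of basal and activated epithelium, went the other way. It had 2.67 TPM for type 1, 10.4 TPM for type 2, 2.50 TPM with tamoxifen and 3.90 TPM with control siRNA in BT483. T47D-TamR had 43.2, 65.4, 32.4 and 30.9 TPM under these conditions, and 9.61 to 19.9 TPM in the drug arm, where its lowest library lies just under the highest of BT483. In edgeR the log2 fold change was −3.45 (SE 0.247, adjusted p = 1.17e-06). KRT14, the type I partner of KRT5 in basal cells, had 0 to 4 counts per library in BT483 and 18 to 39 in T47D-TamR. Its log2 fold change was −3.25 (SE 0.634, adjusted p = 0.000702 in edgeR), but it passed the filter through T47D-TamR alone.

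KRT5, the other defining basal keratin, had 2 to 7 counts per library in BT483 and 2 to 9 in T47D-TamR and was not tested between the lines. KRT16, which pairs with KRT6 proteins in activated epithelium, had a log2 fold change of −0.44 (SE 0.216, adjusted p = 0.0882 in edgeR). Without the library of control siRNA with tamoxifen of BT483 it reached an adjusted p of 0.0245, and without that of T47D-TamR one of 0.0225.

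KRT4 and KRT13 are the type II and type I partners of mucosal stratified epithelium. Between the lines they differed in opposite directions, while KRT4 had the higher TPM of the pair in every library. KRT4 had 26.5 TPM for type 1, 10.1 TPM for type 2, 24.0 TPM with tamoxifen and 23.9 TPM with control siRNA in BT483. In T47D-TamR it had 114, 108, 148 and 127 TPM in the siRNA arm and 276 to 328 TPM in the drug arm, above every BT483 library. KRT13 had 1.24 TPM for type 1, 2.71 TPM for type 2, 11.5 TPM with tamoxifen and 7.54 TPM with control siRNA in BT483, and at most 0.0850 TPM in any T47D-TamR library.

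The log2 fold changes in edgeR were −2.80 for KRT4 (SE 0.167, adjusted p = 8.25e-08) and 6.51 for KRT13 (SE 0.606, adjusted p = 3.97e-06). KRT13 passed the filter through BT483 alone, so its direction followed from the filter. KRT10, a type I keratin of cornifying layers, did not pass, at 0.19 (SE 0.543, adjusted p = 0.771). KRT2, a type II keratin of the upper epidermis, was higher in BT483 by 3.98 (SE 0.546) and KRT79 by 2.15 (SE 0.560), with 81 and 49 counts in the 4 BT483 libraries together against 6 and 13 counts in the 4 siRNA libraries of T47D-TamR. KRT9, a keratin of palm and sole epidermis, was lower in BT483, at −2.38 (SE 0.577), with 13 counts in BT483 against 76 in T47D-TamR.

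Of the 8 hair keratins tested, 7 were called higher in BT483 and 0 lower in edgeR, beside 70.7% of all genes called. Among the 7, KRT32, KRT33A, KRT35, KRT37 and KRT39 had at most 13 counts in the 4 siRNA libraries of T47D-TamR together. They passed the filter through BT483 alone, so their direction followed from the filter. KRT83 had a log2 fold change of 0.35 (SE 0.355, adjusted p = 0.389 in edgeR). KRT32, a type I hair keratin, had 30.6 TPM for type 1, 31.1 TPM for type 2, 39.8 TPM with tamoxifen and 35.5 TPM with control siRNA in BT483, and at most 0.383 TPM in T47D-TamR. Its log2 fold change was 7.19 (SE 0.386, adjusted p = 6.56e-08 in edgeR). KRT37 had 140 counts in BT483 and 0 in the siRNA libraries of T47D-TamR, a ratio with a lower counting limit of 42.4. KRT35 had 22 counts against 0, with a lower counting limit of 6.21.

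KRT33A had 96 counts in BT483 and 1 in the siRNA libraries of T47D-TamR, a ratio of 109 with a counting interval of 19.1 to 4340.0. KRT39 was called at a log2 fold change of 3.03 (SE 0.812, adjusted p = 0.00565 in edgeR) from 46 counts against 5. Without the BT483 library of control siRNA with tamoxifen its adjusted p was 0.0560. KRT81 and KRT86, type II hair keratins, had log2 fold changes of 2.60 (SE 0.388) and 1.23 (SE 0.253).

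**Figure D3:**
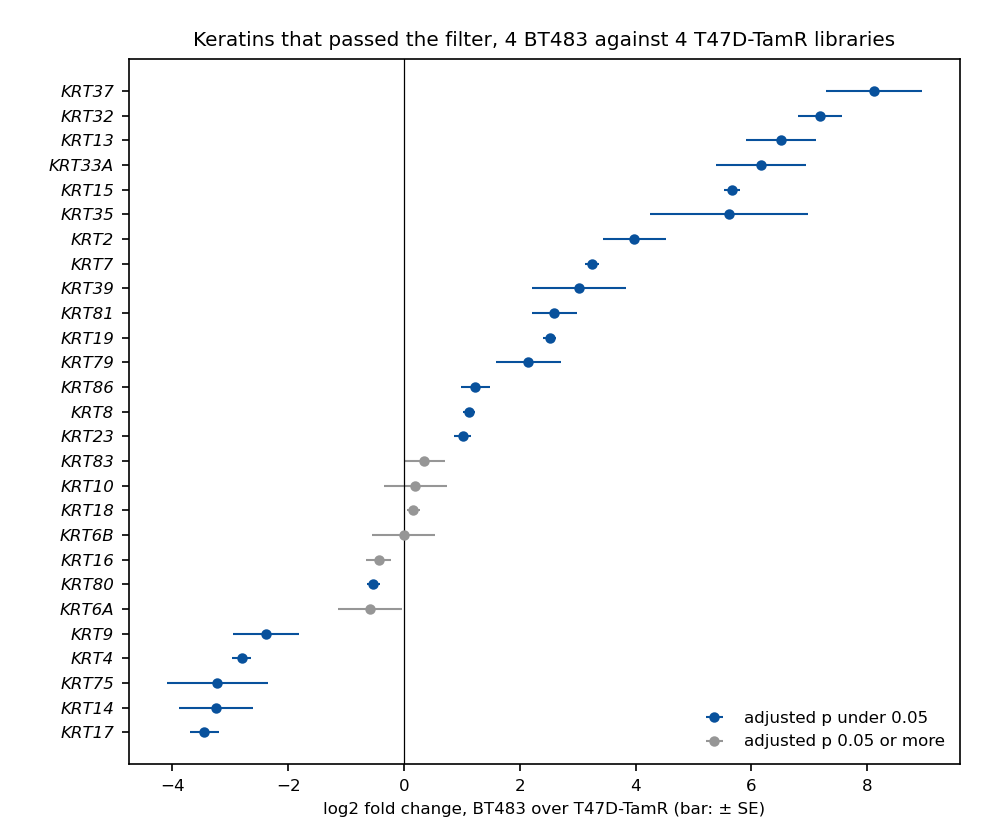
Fitted log2 fold changes of BT483 over T47D-TamR with their SE for the 27 keratins that passed the filter, from the highest at the top to the lowest; blue points passed an adjusted p of 0.05. The hair keratins KRT37, KRT32, KRT33A and KRT35 lie near the top together with KRT13 and KRT15, KRT86 and KRT83 lie further down, and KRT17, KRT14, KRT75 and KRT4 lie at the bottom; the values of KRT37 and KRT35, which had 0 counts in T47D-TamR, depend on the prior count of the fit.

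KRT80, a type II keratin of many epithelia, was lower in BT483 at −0.53 (SE 0.113, adjusted p = 0.00123 in edgeR). Its levels were 181 to 220.5 TPM in BT483 and 188 to 384 TPM in T47D-TamR, so the ranges overlap, and with limma on the normalized log2 TPM it had −0.10 and an adjusted p of 0.603. KRT23, a type I keratin, was higher in BT483 at 1.01 (SE 0.149, adjusted p = 8.22e-05). KRT75, a keratin of the hair root sheath, was lower in BT483 at −3.23 (SE 0.875, adjusted p = 0.00598) from 4 counts in BT483 against 47 in T47D-TamR. It passed the filter through T47D-TamR alone. Its adjusted p was 0.0819 without the type 2 library of BT483 and 0.112 without that of T47D-TamR.

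The DNA around the gene start is shown for a member higher in T47D-TamR (KRT4) and for 2 hair keratins seen in BT483 (KRT32 and KRT37). The windows come from RefSeq on GRCh38, run from 250 bases before to 50 bases after the start and are written 5′ to 3′ on the minus strand, at chr12:52814067-52814366, chr17:41467337-41467636 and chr17:41424536-41424835. Capitals mark matches to TATAA, the core of a TATA box, and to GGGCGG, the core of a GC box, on either strand.
KRT4: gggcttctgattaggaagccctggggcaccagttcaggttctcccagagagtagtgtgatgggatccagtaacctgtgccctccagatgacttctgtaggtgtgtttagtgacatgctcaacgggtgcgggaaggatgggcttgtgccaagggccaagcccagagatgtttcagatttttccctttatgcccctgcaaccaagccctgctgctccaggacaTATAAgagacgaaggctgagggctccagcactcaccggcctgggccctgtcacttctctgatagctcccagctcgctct
KRT32: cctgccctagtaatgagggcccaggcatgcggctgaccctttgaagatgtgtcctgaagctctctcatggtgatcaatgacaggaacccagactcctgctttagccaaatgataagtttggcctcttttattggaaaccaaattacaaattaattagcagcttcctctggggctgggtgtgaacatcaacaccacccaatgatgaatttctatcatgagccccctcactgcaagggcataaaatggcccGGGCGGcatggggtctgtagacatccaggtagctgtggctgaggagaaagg
KRT37: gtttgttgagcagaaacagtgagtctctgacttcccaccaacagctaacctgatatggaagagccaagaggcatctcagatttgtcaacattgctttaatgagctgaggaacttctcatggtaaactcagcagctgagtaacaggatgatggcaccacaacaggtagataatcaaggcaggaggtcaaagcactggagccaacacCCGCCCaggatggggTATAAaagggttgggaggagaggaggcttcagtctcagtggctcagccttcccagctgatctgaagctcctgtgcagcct
TATAA stood at position −29 from the start in KRT4 and at −30 in KRT37, and GGGCGG at −1 in KRT32 and, on the opposite strand, at −45 in KRT37. Windows were given for 34 members, most of them low or absent in these libraries. Of the members with a mean of at least 1 CPM, only KRT4, KRT8, KRT10 and KRT32 had one. KRT7, KRT18 and KRT19 had none. Each member was counted by 1 window, whereas the share of all genes counts every window given. Of these, 25 held TATAA on either strand (73.5%, against 20.4% of 35116 windows of all genes) and 6 held GGGCGG (17.6%, against 45.0%). None held TGANTCA, the core of an AP-1 site (7.71% of all windows), and 2 held TTCNNNGAA, the core of a STAT site (5.88%, against 7.66%). Such matches are descriptions of letters in these windows.

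Genes of keratin anchorage and of epithelial identity were counted in the same edgeR fit. Of 10 tested desmosome genes, the junctions on which keratins end, 7 were higher and 2 lower in BT483, with log2 fold changes of 5.81 for the plakophilin PKP1 (SE 0.597), 3.67 for PKP2 (SE 0.187), −1.63 for PERP (SE 0.122) and 0.72 for desmoplakin, DSP (SE 0.125). Of 10 hemidesmosome and plakin genes, 5 were higher and 1 was lower. These included the hemidesmosomal collagen COL17A1 at 3.27 (SE 0.601), the linkers MACF1 at 1.60 (SE 0.109) and plectin, PLEC, at 1.45 (SE 0.109), and the integrin subunit ITGB4 at −1.44 (SE 0.116). Of 10 other intermediate filament genes, 6 were higher and 3 lower. They included nestin, NES, at 4.84 (SE 0.358) and the lens filament gene BFSP2. BFSP2 had 0 counts in BT483 against 79 in the siRNA libraries of T47D-TamR, a ratio with an upper counting limit of 0.0542.

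Basal transcription factors and markers went mostly the other way, with 4 higher and 11 lower in BT483 of 16 tested. Among those higher in BT483, OXTR had 2132 counts against 116 in the siRNA libraries of T47D-TamR, a ratio of 20.8. The contractile gene CNN1 had 2 counts in BT483 against 277 in the siRNA libraries of T47D-TamR, a ratio of 0.00818 with a counting interval of 0.000986 to 0.0298. The contractile gene ACTA2 had a log2 fold change of −5.97 (SE 0.231), the basal regulator TP63 one of −5.66 (SE 0.428) and TRIM29 one of −4.63 (SE 0.193). Of 18 epithelial and luminal transcription factors, 11 were higher and 3 lower, among them ESR1 at 2.40 (SE 0.120) and TFAP2B. TFAP2B had 0 counts in BT483 against 26336 in the siRNA libraries of T47D-TamR, a ratio with an upper counting limit of 0.000159. Of 12 cornified envelope genes, 8 were higher and 3 lower, with SPRR3 at 5.29 (SE 0.429). Among them, S100A7 had 71 counts in BT483 against 0 in the siRNA libraries of T47D-TamR, a ratio with a lower counting limit of 21.2. The summed level of this list was nonetheless lower in BT483, at 359 to 492 TPM. T47D-TamR had 541 to 811 TPM in the siRNA arm and 514 to 567 TPM in the drug arm. Of 11 epithelial adhesion markers, 8 were higher and 1 was lower. All these shares stand beside the 70.7% of genes called.

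NLK knockdown changed no keratin at the threshold. None of the 33 keratins tested was called in the edgeR fit of all 11 libraries. Only 1 of 24023 genes was called there (0.00416%), and it was NLK itself. Of the 33 keratins, 3 had an unadjusted p under 0.05 (KRT80, KRT13 and KRT75), beside 5.54% of all genes tested. Without the filter on low counts, 3 keratins were called (KRT81, KRT13 and KRT17). The median log2 fold change was 0.22 over the keratins tested and 0.02 over all genes tested.

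KRT80 was higher in 4 of 4 knockdown libraries than in the control of their line. Both knockdown libraries of a line share 1 control siRNA library, so these are not 4 independent comparisons. Control siRNA with tamoxifen had 304 CPM of KRT80 in BT483 and 423 CPM in T47D-TamR. Without tamoxifen, KRT80 had 310 CPM for type 1 and 318 CPM for type 2 against 260.0 CPM with control siRNA in BT483. T47D-TamR had 424 CPM for type 1 and 587 CPM for type 2 against 326 CPM. The log2 fold change was 0.41 (SE 0.143, adjusted p = 0.880 in edgeR). KRT7 was likewise above its control in 4 of 4, by ratios of 1.18 and 1.17 in BT483 and 1.22 and 1.35 in T47D-TamR for type 1 and type 2, at a log2 fold change of 0.26 (SE 0.128, adjusted p = 0.880).

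KRT13 had 1.16 CPM for type 1 and 2.63 CPM for type 2 against 7.24 CPM with control siRNA in BT483, where both counting intervals of the ratio lie below 1 (0.0921 to 0.264 and 0.268 to 0.489). T47D-TamR had at most 2 counts of it in any library, which is under the floor. KRT19 stayed within a ratio of 0.964 to 1.06 of its control in all 4 libraries. KRT18 was below its control in BT483, by ratios of 0.851 for type 1 and 0.823 for type 2, and above it in T47D-TamR, by 1.14 and 1.21. This difference between the lines had a log2 value of −0.44 (SE 0.238, adjusted p = 1.0 in edgeR). No keratin was called for it, nor was any gene (0%), and 0 keratins had an unadjusted p under 0.05, beside 3.06% of all genes.

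**Figure D4:**
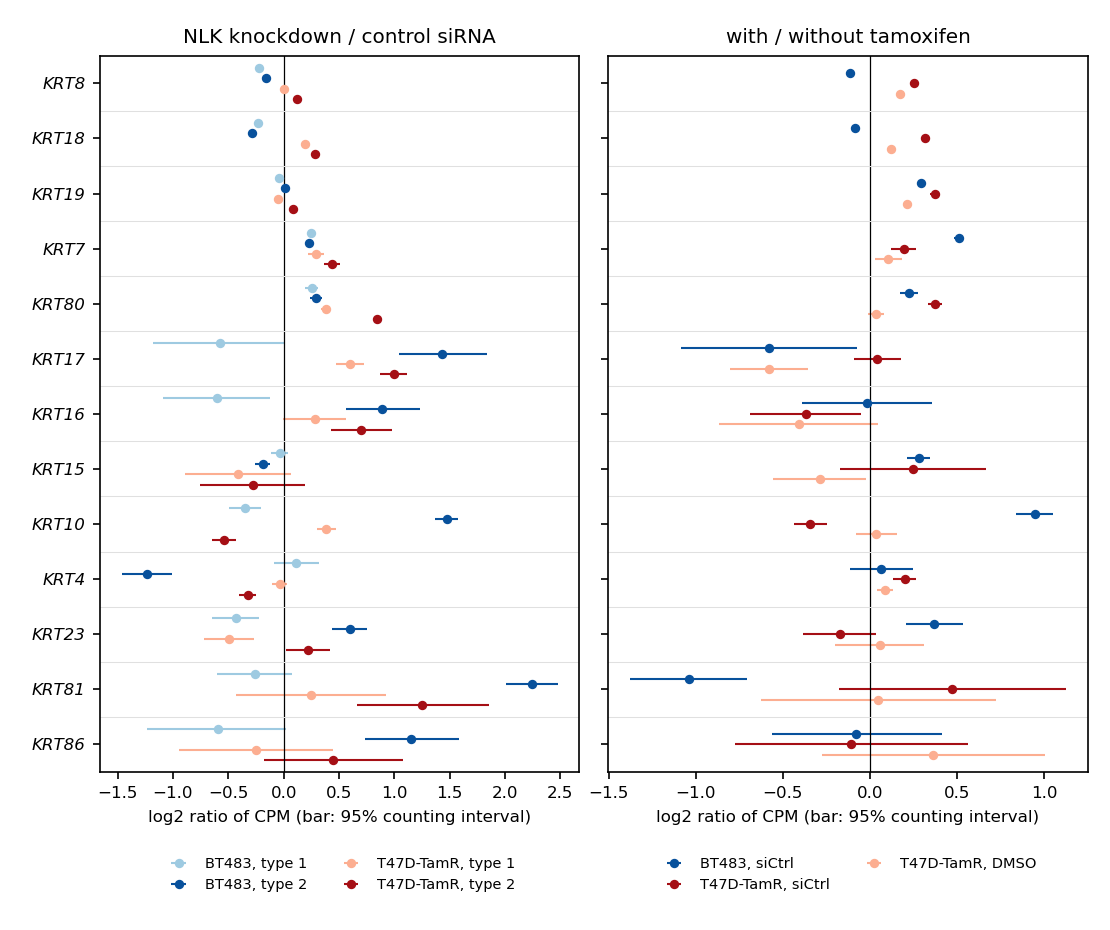
Ratios of each library to its own control for 13 keratins, as log2 with 95% counting intervals, for NLK knockdown on the left and tamoxifen on the right; blue is BT483 and red is T47D-TamR. KRT80 and KRT7 lie above 0 for all 4 knockdown libraries, and KRT19 lies above 0 for all 3 tamoxifen pairs. Both knockdown libraries of a line are divided by the same control library.

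Between type 2 and type 1, 0 of 33 keratins were called in edgeR (0.470% of all genes) and 8 had an unadjusted p under 0.05 (9.12% of all genes). They were KRT6B, KRT81, KRT86, KRT17, KRT16 and KRT23, higher with type 2, and KRT4 and KRT2, lower. KRT23 came closest, at a log2 fold change of 0.87 (SE 0.185, adjusted p = 0.0653). It had 39.8 CPM for type 2 against 19.5 CPM for type 1 in BT483 and 18.0 CPM against 11.03 CPM in T47D-TamR. Its adjusted p was 0.0402 without the control siRNA library of BT483, 0.0170 without the tamoxifen library of BT483 and 0.0476 without that of the siRNA arm of T47D-TamR. With DESeq2, 4 keratins were called (KRT81, KRT4, KRT23 and KRT17).

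KRT81 had the highest log2 fold change among keratins with a mean of at least 1 CPM. Type 2 had 47.01 CPM against 8.32 CPM for type 1 in BT483, with 9.96 CPM in the control, and 3.38 CPM against 1.69 CPM in T47D-TamR, with 1.43 CPM in the control. The ratio of type 2 to type 1 was 5.65 in BT483 (interval 4.71 to 6.83) and 2.00 in T47D-TamR (1.36 to 2.99), with a log2 fold change of 1.94 (SE 0.490, adjusted p = 0.194 in edgeR). Without the tamoxifen library of BT483 the adjusted p was 0.0071, and KRT81 was also called without the type 2 library or the tamoxifen library of the siRNA arm of T47D-TamR. KRT86 moved with it, at 7.79 CPM for type 2 against 2.32 CPM for type 1 in BT483.

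KRT81 and KRT86 are near copies, and reads of one can be counted for the other. Their coding sequences were 94.2% identical and shared an unbroken run of 605 bases, and 25.6% of the 150-base windows of the KRT81 transcript also occurred in KRT86. They differ most near the 3′ end of the coding sequence, which is shown from base 1237 to 1326 with the 19 differing bases in capitals (GENCODE 29).
KRT81: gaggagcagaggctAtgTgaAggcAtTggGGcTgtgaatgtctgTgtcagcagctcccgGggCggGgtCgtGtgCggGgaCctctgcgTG
KRT86: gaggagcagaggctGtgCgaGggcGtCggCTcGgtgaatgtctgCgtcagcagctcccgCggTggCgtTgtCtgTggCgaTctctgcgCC
The KRT86 gene also spans KRT81 on the opposite strand, and whether reads were counted by strand is not given in the sources used here. How counts split between this pair is therefore uncertain. KRT8 and KRT18 overlap on opposite strands as well, and KRT7 overlaps KRT86 on the same strand. The effect of these overlaps on the counts, and on the ratio of KRT8 to KRT18 above, was not tested. As to pseudogenes, 15.5 to 16.6% as many counts as KRT8 fell on its 50 pseudogenes in BT483 and 18.9 to 21.7% in T47D-TamR, and 6.28 to 7.46% for KRT18 over both lines.

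KRT10 went in opposite directions with the siRNAs in the lines. It had 154 CPM for type 2 against 43.7 CPM for type 1 in BT483, a ratio of 3.53 (interval 3.26 to 3.84), and 52.4 CPM against 99.5 CPM in T47D-TamR, a ratio of 0.527 (0.492 to 0.565). With 107 CPM under tamoxifen against 55.7 CPM with control siRNA in BT483, its 4 BT483 libraries spread more than those of KRT19 or KRT8. The activated keratins KRT6A, KRT6B and KRT6C were low and are named here after their values were seen. In BT483 they had 0.548, 1.28 and 0.146 CPM for type 2 (15, 35 and 4 counts) against 0.0645, 0.193 and 0 CPM for type 1 (1, 3 and 0 counts). In T47D-TamR they had 0.737, 2.43 and 0.347 CPM for type 2 (17, 56 and 8 counts) against 0.483, 0.644 and 0.161 CPM for type 1 (12, 16 and 4 counts). The level of KRT6B in BT483 was higher still with tamoxifen, at 1.86 CPM (50 counts) against 0.396 CPM with control siRNA (7 counts), while T47D-TamR had 0.426 CPM of it with tamoxifen against 0.396 CPM with control siRNA. Of the other lists, 2 of 16 basal markers and 1 of 12 cornified envelope genes were called in edgeR (0.47% of all genes). These were OXTR at 1.91 (SE 0.352, adjusted p = 0.0374), SOX9 at 1.49 (SE 0.203, adjusted p = 0.00631) and SPRR1A at 2.53 (SE 0.507, adjusted p = 0.0480), higher with type 2. Called or not, 10 basal markers were higher and 6 lower, and 8 cornified envelope genes were higher and 4 lower.

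Tamoxifen at 0.5 µM changed no keratin at the threshold either, with 0 of 33 called in edgeR beside 0.0416% of all genes. Of the 33, 2 had an unadjusted p under 0.05, beside 6.62% of all genes. KRT19 was higher with tamoxifen in 3 of 3 pairs. It had 5721 CPM with tamoxifen against 4674 CPM without in BT483, 1032 CPM against 798 CPM with control siRNA in T47D-TamR, and 1458 CPM against 1257 CPM with DMSO. The log2 fold change was 0.29 (SE 0.112, adjusted p = 0.600). KRT7 was also higher in 3 of 3 pairs, by ratios of 1.42 in BT483 and of 1.14 with control siRNA and 1.08 with DMSO in T47D-TamR (log2 fold change 0.28, SE 0.127, adjusted p = 0.745).

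The difference in the tamoxifen response between BT483 and T47D-TamR called 0 keratins, beside 0.691% of all genes, in edgeR. Over all genes, 8.7% had an unadjusted p under 0.05. An unadjusted p under 0.05 was found for KRT32, at 2.72 (SE 0.897, adjusted p = 0.305), and KRT13, at 4.30 (SE 1.94, adjusted p = 0.554), both with at most 0.383 TPM in any T47D-TamR library. T47D-TamR had grown in tamoxifen before the experiment, so this compares added tamoxifen in a line made resistant with tamoxifen in one that was not.

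The siRNA arm and the drug arm of T47D-TamR were compared through control siRNA against DMSO with and without tamoxifen. Other libraries of the fit also enter this contrast through the shared terms. KRT15 was lower in the siRNA arm by a log2 fold change of −1.33 (SE 0.167, adjusted p = 0.0178 in edgeR, beside 0.0333% of all genes called). It had 4.18 CPM with tamoxifen and 3.53 CPM without in the siRNA arm, against 8.35 CPM with tamoxifen and 10.2 CPM without in the drug arm. The call was lost when any of these 4 libraries was left out. The adjusted p was then 0.0787 without control siRNA with tamoxifen, 0.281 without control siRNA, 0.112 without DMSO with tamoxifen and 0.691 without DMSO, at log2 fold changes of −1.61 to −1.04.

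KRT4 and KRT19 also stood lower in the siRNA arm, and KRT17 and KRT16 higher, without passing. KRT4 had 157 CPM with tamoxifen and 136 CPM without in the siRNA arm against 301 CPM and 284 CPM in the drug arm (log2 fold change −0.96, SE 0.313, adjusted p = 0.899 in edgeR). KRT17 had 35.6 CPM with tamoxifen and 34.5 CPM without in the siRNA arm against 10.9 CPM and 16.2 CPM in the drug arm (1.34, SE 0.487, adjusted p = 0.935). KRT19 had a log2 fold change of −0.58 (SE 0.127, adjusted p = 0.264) and KRT16 one of 1.10 (SE 0.368, adjusted p = 0.899). In total 8 keratins had an unadjusted p under 0.05, KRT8, KRT7 and KRT80 besides these 5, against 5.11% of all genes. Without the type 2 library of BT483, KRT4 and KRT17 were called as well. DESeq2 called KRT15 and KRT19.

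**Figure D5:**
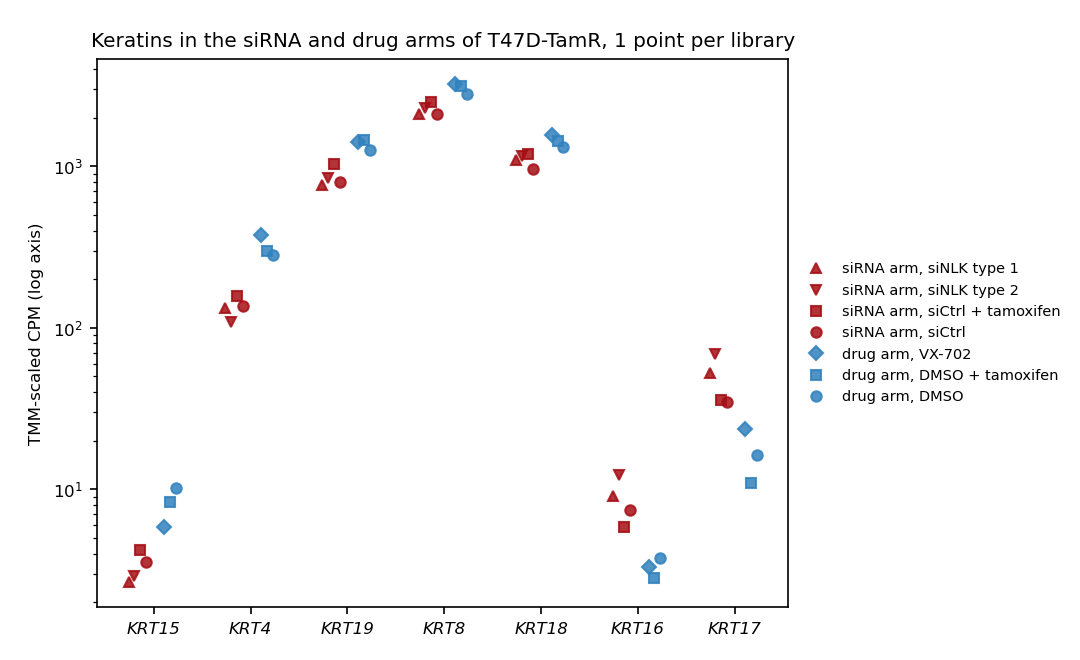
TMM-scaled CPM of 7 keratins in the 7 T47D-TamR libraries on a log axis, with the siRNA arm in red to the left of the drug arm in blue and 1 point per library. KRT15, KRT4, KRT19, KRT8 and KRT18 lie lower in the siRNA arm, and KRT16 and KRT17 higher; KRT15 alone passed the test.

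Some genes of mesenchymal cells, picked here after their values were seen, stood higher in 3 of the T47D-TamR libraries. The collagen COL1A2 had 1.46 TPM for type 1, 1.06 TPM for type 2 and 0.524 TPM for control siRNA, against at most 0.0902 TPM in the other 4 libraries of this line, and vimentin (VIM), an intermediate filament of mesenchymal cells, had 1.10, 1.27 and 0.821 TPM in them against at most 0.102 TPM. BT483 had at most 0.136 TPM of COL1A2 and 0.713 to 1.19 TPM of VIM. The summed level of all 14 genes of the mesenchymal list was 64.8 to 99.1 TPM in the siRNA arm, 83.0 to 113 TPM in the drug arm and 38.2 to 67.5 TPM in BT483. FN1 was called between the arms, at −1.46 (SE 0.211, adjusted p = 0.0392 in edgeR). The leukocyte and endothelial list summed to at most 3.11 TPM in any library. The part of such RNA in the keratin values was not tested.

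VX-702 was compared with DMSO as 1 library against 1 and has no test. None of the 14 keratins with a mean of at least 1 CPM in the pair passed a 2-fold difference, beside 1.34% of 15483 genes. Their median log2 difference was 0.18 and that of all genes 0.06. KRT15 had the lowest ratio of them, with 5.82 CPM for VX-702 against 10.2 CPM for DMSO, a ratio of 0.570 (counting interval 0.461 to 0.704). KRT80 had 436 CPM against 302 CPM, a ratio of 1.44 (1.40 to 1.48), and KRT8, KRT18 and KRT19 had ratios of 1.15, 1.19 and 1.12. All drug-arm comparisons with DMSO share this 1 DMSO library.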

How the data were processed

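The authors made stranded mRNA libraries and sequenced pairs of 150 bases, per the labels' protocols. They deposited read counts per gene, log2(TPM + 1) values per library and a table of normalized log2 TPM values. The submitters' processing notes name GRCh38. For the aligner, the annotation and the strand setting, a name is not given in the sources used here. Levels are the deposited log2(TPM + 1) values turned back into TPM, or CPM from the deposited counts after TMM scaling. Tests were edgeR 4.0.16 quasi-likelihood F tests on the counts as deposited (R 4.3.3, TMM, filterByExpr, robust), with 7 tests across genes, p-values adjusted by Benjamini-Hochberg across every gene in a fit and called under 0.05. The line test used the 8 siRNA libraries with condition as block. The other tests used all 11 libraries with arm, knockdown, tamoxifen and VX-702 as terms. VX-702 against DMSO has 1 library a group and no test; a prior count of 2 and a mean of at least 1 CPM were used. The fits were tested on simulated data with 200 changed genes. Alternatives were DESeq2 1.42.0, no filter, at least 10 counts in every library, limma 3.58.1 on the normalized log2 TPM, and each library left out. Keratins were named where their mean reached 1 CPM, where any test called them, or where they are standard luminal or basal markers; others are given by counts or range or said to be chosen after their values were seen. The members and lists were chosen with earlier results of these data known. Coordinates and transcripts are from GENCODE 29, which matched 56414 symbols, and promoter windows from RefSeq on GRCh38. Identity was computed on coding sequences in place of proteins. Total counts of 14637083 to 26915863 per library set the precision.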

Additional observations from a re-analysis of the deposited data

Results flagged for a closer look

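KRT18 under knockdown and tamoxifen, and KRT8 under tamoxifen, moved in opposite directions in the lines. In these comparisons every library of a line lay on the same side of its control and beyond its counting interval. Both knockdown libraries of a line share 1 control library. For NLK knockdown, the mean log2 ratio of KRT18 in BT483 minus that in T47D-TamR was −0.4931, from ratios of 0.851 and 0.823 in BT483 and of 1.14 and 1.21 in T47D-TamR. For tamoxifen, the difference was −0.305 for KRT18, from 0.942 in BT483 and 1.25 and 1.09 in T47D-TamR. KRT8 differed by −0.3238 under tamoxifen, from 0.926 in BT483 and 1.19 and 1.13 in T47D-TamR. In edgeR's test of the difference itself, none was called. Fitted values were −0.44 for KRT18 under knockdown (adjusted p = 1.0), −0.30 for KRT18 under tamoxifen (adjusted p = 0.813) and −0.32 for KRT8 under tamoxifen (adjusted p = 0.794). BT483 has 1 tamoxifen pair.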

How the results depend on the processing

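No named keratin reversed its direction where the main fit or the alternative called it. Changes of sign between uncalled fits were not counted. The 21 keratins called between the lines became 23 with DESeq2 or without the filter, 10 where each library needed at least 10 counts and 12 with limma on normalized log2 TPM, where fewer keratins were tested (14 and 17). The count was 20 to 23 with a library left out, 22 with all 11 libraries and 18 with no replicate block, that is without the condition term. Otherwise no paired analysis was possible because each group holds 1 library. For knockdown, 3 keratins were called without the filter and 0 under each other alternative. For siRNA type 2 against type 1, 4 were called with DESeq2, 2 without the filter and 0 to 2 with a library left out. Between the arms of T47D-TamR, 2 were called with DESeq2, 5 without the filter, 0 under the 10-count minimum, 0 with limma and 0 to 3 with a library left out. The cause of these shifts was not tested. In that comparison KRT15 had −1.34 and an adjusted p of 0.0707 under the 10-count minimum, and −0.87 and 0.504 with limma. Under the alternatives, 2298 values of single keratins kept their side of the threshold, 26 newly passed it and 10 no longer did. The call of NLK itself with knockdown was lost under 8 of 15 alternatives, at log2 fold changes of −1.92 to −1.54 over all 15. Its adjusted p was 0.144 under the 10-count minimum and 0.715 with limma. Without a library it was 0.116 (control siRNA) and 0.120 (type 1) in BT483, and 0.373 (control siRNA), 0.138 (type 1), 0.1295 (DMSO) and 0.137 (DMSO with tamoxifen) in T47D-TamR. For NLK between the lines, 2 of 14 alternatives newly passed. The knockdown difference without the BT483 control library, and the tamoxifen difference without either BT483 control siRNA library, could not be fitted. At these depths 3 counts correspond to 0.111 to 0.205 CPM, so the 17 keratins that never exceeded 3 counts cannot be compared.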
